A study of Mus musculus with 2 samples.

Results

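The proteasome genes of the mouse are described here in the embryonic midbrain. They were taken by symbol: every protein-coding gene of the GENCODE annotation whose symbol starts with Psma to Psmg followed by a digit. The rule matched 54 genes, of which 50 were protein-coding, out of 21474 protein-coding genes and 43346 Ensembl genes measured. The other 4 matches were pseudogenes with 0 to 3 expected counts per library and were left out. The rule used names and gene types, and no measured value. It also took Psmc3ip, which encodes a partner of the recombinases of meiosis and is no proteasome subunit. That leaves 49 genes of the complex, its activators, its regulators and its assembly chaperones.

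Total RNA came from the midbrain of healthy embryos of the strain B6NCrl at day 16.5 of gestation, with no treatment or genetic change named. There was 1 group of 2 libraries, given as biological replicates 1 and 2, and the labels carry the same donor identifier for both. Each library was made from 10 ng of RNA over 200 nucleotides, from pooled embryos of both sexes. For replicate 2 the labels give 37 embryos, and for replicate 1 they state no number. The libraries held 31830355 and 36576263 expected counts, where an expected count is the estimated number of reads of a gene. With 1 group there was no comparison of conditions and no p-value. Differences between the 2 libraries describe these 2 pools, whose spread may be biological or technical. Levels are in TPM, transcript abundances per length on a common total, so that genes can be set beside each other. Pairs of values are replicate 1 and then replicate 2, and ± is the SD over both libraries (n = 2). The 8 neuron markers summed to 5129 and 5281 TPM, from Tubb3 at 1816 and 1744 down to Gad2 at 52.8 and 52.3 TPM. The 6 red cell markers summed to more, 12790 and 11288 TPM, and astrocyte markers summed to 548 and 916 TPM.

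The proteasome degrades proteins that carry ubiquitin chains. Its core particle is a barrel of stacked rings, with outer rings of alpha subunits that gate the entrance and inner rings of beta subunits, of which Psmb5, Psmb6 and Psmb7 cut peptide bonds. A regulatory cap, made of a base with a ring of ATPases and of a lid, binds ubiquitin chains, removes them, and unfolds and threads the substrate into the core. In immune cells and under interferon the catalytic subunits Psmb8, Psmb9 and Psmb10 replace the standard ones and form the immunoproteasome. In neurons the proteasome is known for its part in axon growth, synapse turnover and protein quality control.

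Nearly the whole complex was transcribed in the midbrain, and at high levels. Both libraries gave 1 TPM or more for 46 of 50 genes (92.0%), against 62.1% of all protein-coding genes. At least 100 TPM in both libraries was reached by 33 of 50 (66.0%), against 7.75% of all protein-coding genes. The median over the 50 genes was 189 and 193 TPM, whereas the median detected protein-coding gene stood at 20.5 and 20.0 TPM. All 50 together took 0.977% and 0.989% of the TPM of nuclear genes, and the 31 standard core and cap subunits took 0.872% and 0.882%. The 4 genes below the detection limit were Psma8, Psmb9, Psmb11 and Psme2b, of which Psmb9 and Psme2b reached it by posterior mean TPM, the tables' other estimate. These levels are averages over a tissue: fewer cells with a transcript and less of it per cell cannot be told apart.

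**Figure D1:**
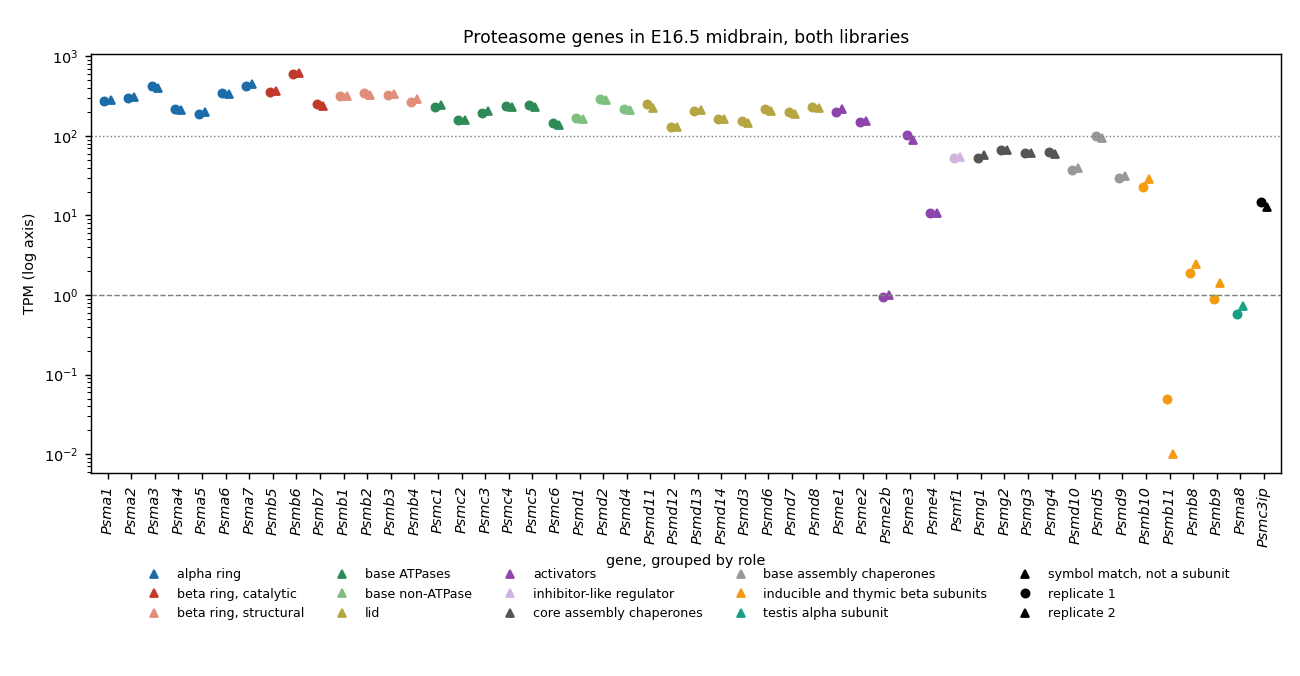
TPM (log axis) of the 50 genes taken by symbol, grouped and coloured by role, with replicate 1 as a circle and replicate 2 as a triangle. The dashed line marks 1 TPM and the dotted line 100 TPM. The alpha ring, beta ring and cap genes lie between 130 and 612 TPM on average, the assembly chaperones below 100, and the inducible, thymic and testis subunits at the bottom right.

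The alpha ring had a median of 302 ± 7.72 TPM over its 7 genes. Psma7 was highest at 429 and 454 TPM, on chromosome 2 from 180036374 to 180042433 (GRCm38, minus strand). Psma3 stood at 428 and 399 TPM and Psma6 at 342 and 334 TPM. Psma2 followed at 296 and 307, Psma1 at 272 and 281, Psma4 at 216 and 209, and Psma5 was lowest at 186 and 199 TPM. The ring holds each subunit in equal number, whereas its transcripts spanned 2.30-fold in replicate 1 and 2.28-fold in replicate 2. That span is far wider than the spread between libraries: all 21 pairs of alpha genes kept their order in both.

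The beta ring was higher, with a median of 328 ± 0.856 TPM. Psmb6, the caspase-like catalytic subunit, was the highest of all 50 genes at 608 and 615 TPM. It lies on chromosome 11 from 70525367 to 70527858 (plus strand). Psmb5, the chymotrypsin-like subunit that most proteasome inhibitors target, stood at 355 and 368 TPM. Psmb7, the trypsin-like subunit, was lowest in the ring at 252 and 239 TPM. Psmb6 therefore exceeded Psmb7 by 2.41-fold in replicate 1 and 2.57-fold in replicate 2 (log2 1.32 ± 0.0644). The 4 structural beta subunits lay close together: Psmb2 at 346 and 329, Psmb3 at 327 and 334, Psmb1 at 318 and 322, and Psmb4 at 270 and 292 TPM. Of 21 pairs of beta genes 20 kept their order, and the pair that did not was Psmb2 and Psmb3. Over the 14 standard core genes the summed level was 4646 and 4683 TPM.

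The tissue-restricted counterparts of the core subunits were low or near 0. Psmb10, which replaces Psmb7, was the best expressed at 22.9 and 28.8 TPM (496 and 727 expected counts; chromosome 8, 105935735 to 105938444, minus strand). Psmb8, which replaces Psmb5, stood at 1.91 and 2.44 TPM on 33 and 55 counts. Psmb9, which replaces Psmb6, stood at 0.90 and 1.43 TPM on 13.6 and 37.1 counts, so that it passed 1 TPM only in replicate 2. Coding transcripts gave 0.28 and 1.12 TPM of this, and the rest was assigned to retained-intron forms. With so few counts that split is uncertain, and so are the ratios and pool difference of Psmb9. The posterior mean gave 1.5 and 2 TPM for Psmb9, with which the Psmb6 to Psmb9 ratio given below becomes log2 8.42. Psma8, an alpha subunit of the testis proteasome, was at 0.58 and 0.73 TPM on 17 and 25 counts. Psmb11, the subunit of the thymic cortex, was at 0.05 and 0.01 TPM on 4 counts and 1 count. At these depths 3 counts of a gene as long as Psmb8 came to 0.174 and 0.133 TPM, and for Psmb11 to 0.0375 and 0.03 TPM, so Psmb11 was at the limit of what could be counted.

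The standard subunit led its counterpart at each of the 4 positions compared, but not to the same degree. Psmb7 exceeded Psmb10 by 11.0-fold and 8.31-fold (log2 3.26 ± 0.287). Psmb5 exceeded Psmb8 by 186-fold and 151-fold (log2 7.39 ± 0.215). Psmb6 exceeded Psmb9 by 676-fold and 430-fold (log2 9.07 ± 0.461), and Psma7 exceeded Psma8 by 740-fold and 622-fold (log2 9.41 ± 0.177). In each case the log2 ratio was many times its SD. Psmb8, Psmb9 and Psmb10 together gave 2.07% and 2.60% of the summed TPM of the 6 catalytic genes, nearly all of it from Psmb10, which stood 11.98-fold and 11.80-fold above Psmb8. The transcripts of the 3 inducible subunits were thus unequal in both libraries.

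**Figure D2:**
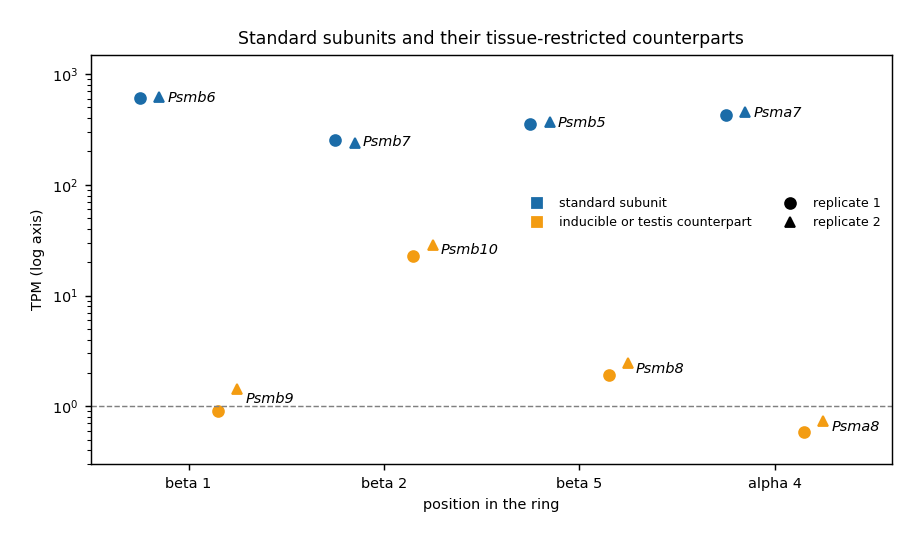
TPM (log axis) of standard core subunits in blue and of their inducible or testis counterparts in orange, by position in the ring, with replicate 1 as a circle and replicate 2 as a triangle. The dashed line marks 1 TPM. Psmb10 at 22.9 and 28.8 TPM lies within 11.0-fold of Psmb7, whereas Psmb9, Psmb8 and Psma8 lie at least 151-fold below their standard subunits in both libraries.

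Psmb8 and Psmb9 lie side by side in the major histocompatibility region with the peptide transporter gene Tap1 between them. Psmb9 is at chromosome 17, 34181987 to 34187764 (minus strand), Tap1 at 34187553 to 34197225, and Psmb8 at 34197721 to 34201454 (plus strand). The starts of Psmb9 and Tap1 overlap on opposite strands, and their transcripts share 182 words of 31 bases. Whether the counting used strand is not stated, so reads from that overlap cannot be told apart. Psmb11 lies next to Psmb5 on chromosome 14, at 54621433 to 54629556 beside 54614119 to 54618022, and the neighbours stood at 0.05 and 355 TPM in replicate 1.

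The cap was transcribed at a lower level than the core. The 17 cap genes summed to 3434 and 3361 TPM with a median of 207 ± 0.46, below the core median of 324 ± 1.65. In the base, the 6 ATPases that form the unfolding ring had a median of 216 ± 4.55 TPM. Psmc1 stood at 233 and 243, Psmc5 at 241 and 232, Psmc4 at 240 and 233, and Psmc3 at 192 and 207 TPM. Psmc2, at 158 and 160, and Psmc6, at 145 and 138, were the lowest in both libraries. The ATPases spanned 1.67-fold and 1.76-fold from highest to lowest, and 12 of their 15 pairs kept their order.

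Of the non-ATPase subunits of the base, Psmd2, a scaffold that also docks ubiquitin-like domains, was highest at 289 and 280 TPM. Psmd4, which binds ubiquitin chains, stood at 215 and 211, and Psmd1, the other large scaffold, at 168 and 165 TPM. The lid had a median of 200 ± 5.17 TPM over 8 genes. By mean TPM Psmd11 was highest there at 252 and 222, followed by Psmd8 at 231 and 227, Psmd6 at 216 and 207, Psmd13 at 208 and 210, and Psmd7 at 201 and 187 TPM. Of the 28 pairs of lid genes 26 kept their order, and Psmd8 was above Psmd11 and Psmd13 above Psmd6 in replicate 2. Psmd14, the metalloprotease that cuts ubiquitin chains off the substrate, stood at 162 and 163 TPM, and Psmd3 at 154 and 146. Psmd12 was the lowest of the 17 cap genes with a Psm symbol at 131 and 130 TPM.

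Ranked by mean TPM, the 31 standard subunits formed an order that both libraries shared for 445 of 465 pairs. Of the 30 neighbours in that order, 17 did not overlap in their values and 13 did. Psmb6, Psma7, Psma3, Psmb5 and Psma6 headed the order without overlap, although Psma7 and Psma3 were only just apart, at 429 and 428 TPM in replicate 1. The 13 overlaps included the runs Psma6, Psmb2 and Psmb3, then Psmd2, Psmb4 and Psma1. The longest run went from Psmb7 through Psmc1, Psmd11 and Psmc5 to Psmc4, whose means lay between 236 and 246 TPM. From Psma5 at 193 ± 8.86 TPM down to Psmd12 at 130 ± 0.304 the neighbours were again apart.

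Activators, which open the core in place of the cap, were unequal. Psme1 and Psme2, the subunits of the interferon-inducible cytoplasmic activator, stood at 201 and 218 TPM and at 151 and 156 TPM, as high as cap genes. Psme3, which forms the nuclear activator, stood at 102 and 89.1 TPM. Psme4, the large activator that acts on acetylated histones, was lower at 10.8 and 10.7 TPM. Psme1 thus exceeded Psme3 by a mean of 2.19-fold (log2 of Psme3 over Psme1 -1.13 ± 0.223). By expected counts, which are not per length, the sign turned (log2 0.23). Psme1 exceeded Psme2 by 1.33-fold and 1.40-fold. These levels are of the whole gene. Counted by coding transcripts alone, Psme1 stood at 172 and 188 TPM and Psme2 at 114 and 111 TPM, further apart. Psme1 (chromosome 14, 55578123 to 55581529) and Psme2 (55587441 to 55591113) lie close together on opposite strands. The retrogene Psme2b stood at 0.94 and 0.99 TPM. Psmf1, an inhibitor of the core in the test tube, was at 53.3 and 54.8 TPM.

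The interferon-inducible genes of the family thus lay at separate levels. By the whole gene, Psme1 and Psme2 stood at 151 TPM or more in both libraries, Psmb10 between 22.9 and 28.8 TPM, and Psmb8 and Psmb9 at 2.44 TPM or less.

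Assembly chaperones, which help build the particle and are not part of the finished one, were lower than the subunits. The core chaperones lay in a narrow band, with Psmg2 at 66.1 and 66.1 TPM, Psmg4 at 63.1 and 59.8, Psmg3 at 61.7 and 60.1, and Psmg1 at 52.1 and 56.99 TPM. Of the base chaperones, Psmd5 stood at 99.2 and 93.7, Psmd10 (gankyrin) at 37.7 and 39.2 and Psmd9 at 29.5 and 31 TPM. All 7 lay below Psmd12, the lowest of the 31 subunits, in both libraries. Psmc3ip stood apart from all of these at 14.8 and 12.6 TPM.

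Genes of the pathway that carry no Psm symbol were read from lists written for the pathway. Pomp, the chaperone that matures the beta ring, stood at 344 and 343 TPM, at the level of the core subunits themselves and above every Psmg and base chaperone. Usp14, a deubiquitinase bound to the cap, was at 174 and 174 TPM. Ecpas, a proteasome adaptor, at 32.8 and 27.8, and Ube3c, a ubiquitin ligase of the cap, at 26.1 and 21.5 TPM, were the lowest of the 11 genes measured. Adrm1 and Sem1, cap subunits named here for that role after their values were seen, stood at 174 and 168 and at 106 and 97.1 TPM. Among genes that extract and deliver substrates, the segregase Vcp was highest at 430 and 416 TPM, then the shuttle Ubqln1 at 111 and 109. Ubqln2, at 43.9 and 42.1, and Ubqln4, at 33.7 and 34.5 TPM, were lowest.

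Nfe2l1, which encodes the factor that raises proteasome gene transcription when proteasome activity falls, stood at 67.0 and 67.4 TPM. Mafg, a partner of such factors, was at 32.5 and 30.9 TPM. The relative Nfe2l3, at 7.56 and 8.01 TPM, and Maff, at 0.74 and 0.53 TPM, were the lowest of the 8 genes of that list. Ubiquitin itself was far above the complex, with Ubb at 3997 and 3954 TPM. Of the 2 ubiquitin-activating enzymes, Uba1 was at 343 and 322 and Uba6 at 13.0 and 12.7 TPM. Of the 30 genes of these lists with enough counts, 0 differed by 1.5-fold between the pools, against 3.46% of all genes, a share at which a list of this size would hold about 1. Nearly all of the 30 had a mean of at least 500 counts, where the share over protein-coding genes was lower, 0.866%.

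The 2 pools had nearly the same proteasome transcripts. The difference of a gene was taken as log2 of replicate 2 over replicate 1 in scaled expected counts, where the mean count over the libraries was 50 or more. Of 45 genes of the family that passed, 0 differed by 1.5-fold or more, against 3.46% of all 14412 genes that passed. Members are counted more deeply than most genes, so the count was repeated at a mean of at least 500 counts. There, 0 of 44 members were past 1.5-fold, against 0.866% of 9241 protein-coding genes, which is less than 1 gene in a list of this size. The median size of the difference was 0.0592 over the members and 0.118 over all genes, and 0.0587 and 0.0929 at the higher minimum. Within 1.1-fold lay 39 of 45 members, against 56.3% of all genes. At the higher minimum it was 39 of 44, against 66.9% of protein-coding genes. Most members lay far above that minimum, so it does not match their depth to that of the other genes. The part of depth in these contrasts was not tested. Replicate 2 was higher in 28 and lower in 17 members, with a median of 0.02 on the log2 scale against 0.01 over all genes; by ratios of TPM the members' median was -0.00475. Scaled by the spike-ins instead, the median of all genes moved by -0.60 (log2), 20 of 45 members passed 1.5-fold beside 51.6% of all genes, and the directions given here, that of Psmb10 included, hold only relative to the median of all genes.

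Few members differed by much. Over all genes with enough counts, 95% of the log2 differences were within 0.508 in size. For protein-coding genes at the higher minimum, 95% were within 0.337. Of the members, only Psmb10, at 0.37, lay past the second value, and the others named next lay inside both. Psmb10 differed the most, 1.29-fold higher in replicate 2 with a counting interval of 1.15 to 1.45 (95%, counting error only). It was followed by the ATPase gene Psmc3 at 1.16-fold higher and by Psmc3ip, Psme1, Psmg1, Psme3 and Psme4 at log2 differences of -0.20, 0.18, 0.17, -0.14 and -0.13. Psma7, Psma5 and Psmd11 came next, at 0.13, 0.13 and -0.13. The activator genes thus went both ways, Psme1 higher and Psme3 and Psme4 lower in replicate 2. In the lid the genes other than Psmd11 lay between -0.065 and 0.062 on the log2 scale. The 5 members with too few counts gave wide intervals. They were 0.937 to 2.33 around 1.46-fold for Psmb8, 1.23 to 4.66 around 2.36-fold for Psmb9, 0.672 to 2.56 for Psma8, 0.00447 to 2.23 for Psmb11 and 0.489 to 2.45 for Psme2b.

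**Figure D3:**
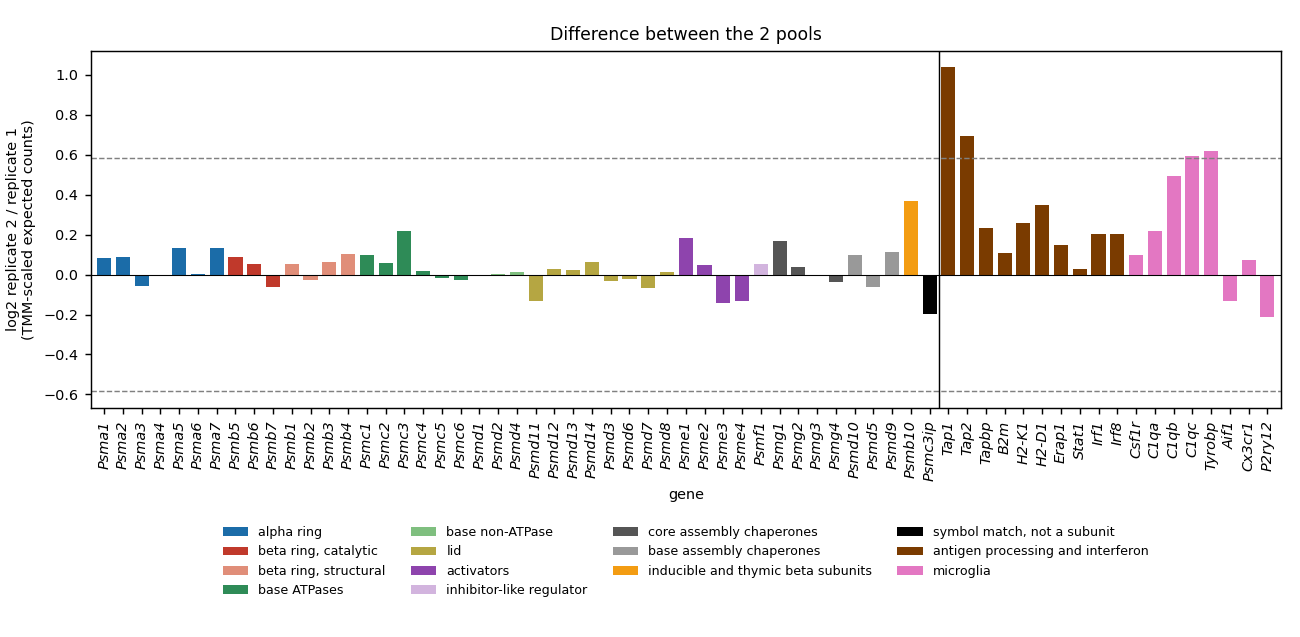
Difference between the pools as log2 of replicate 2 over replicate 1 in scaled expected counts (bars), for the 45 members whose mean count was 50 or more at the left, coloured by role, and for the antigen-processing and microglia lists at the right of the vertical line. Dashed lines mark 1.5-fold. All 45 members lie inside the dashed lines, with Psmb10 the tallest at 0.37, and Tap1, Tap2, C1qc and Tyrobp lie above the upper line.

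Values of other genes are given beside the inducible subunits, of which 0 were called between the pools. Psmb10 did not pass 1.5-fold, and Psmb8 and Psmb9 had too few counts, although the TPM of all 3 was larger in replicate 2. Of all genes with enough counts, 51.9% were higher in replicate 2 and 3.46% past 1.5-fold in either direction. In the list of antigen processing and interferon response 10 of 10 tested genes were higher in replicate 2, and 2 passed 1.5-fold. Tap1 stood at 2.07 and 3.75 TPM (2.05-fold), Tap2, the other subunit of the transporter, at 1.24 and 1.91 (1.62-fold), H2-D1 at 70.0 and 91.7 and B2m at 57.7 and 60.7 TPM. Interferon gamma itself, Ifng, had 0 counts in both libraries, and Nlrc5, an activator of these genes, was at 0.66 and 0.32 TPM. The microglia markers summed to 96.2 and 120 TPM, higher in 6 of 8 tested genes, with C1qc and Tyrobp past 1.5-fold. Of the others, Cx3cr1 was 1.05-fold higher, whereas Aif1 and P2ry12 were lower in replicate 2, at 0.912-fold and 0.864-fold. Ptprc, with too few counts for the comparison, stood at 0.48 and 0.49 TPM. T and B cell markers were detected in 0 of 7 genes, and their sum was 0.53 and 0.38 TPM. Endothelial markers summed to 153 and 144 TPM and progenitor markers to 184 and 141 TPM, with 0 of 6 progenitor genes higher in replicate 2 and 2 past 1.5-fold lower. Astrocyte markers had the largest median difference of these lists, 0.63 on the log2 scale, with 5 of 6 tested genes higher and 3 past 1.5-fold. Those were Aqp4 (2.67-fold), Apoe (1.95-fold) and Aldoc (1.75-fold). The part of these other cells in the values of the inducible subunits was not tested.

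Transcript forms were described for the 37 members that reached 5 TPM in each library and had 2 or more annotated transcripts. In 17 of them 1 transcript held at least 90% of the gene in both libraries, against 20.6% of 8023 protein-coding genes chosen the same way. The median share of the leading transcript was 88.6%, against 67.7% over those genes. The same transcript led in both libraries in 36 of 37, the exception being Psma3. Psma6-201 held 99.8% and 99.8% of Psma6 and Psmd2-201 96.9% and 97.3% of Psmd2.

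Some members were divided among forms. Psmd4-202 held 54.4% and 57.3% of Psmd4, and Psmd4-201 34.5% and 32.8%. Psmd11-214 held 56.8% and 60.5% and Psmd11-205 32.0% and 28.0% of Psmd11. Psmf1-202 held 56.4% and 57.01% and Psmf1-201 32.1% and 30.9% of Psmf1. In Psme1 and Psmc3 the split itself differed between the pools, with Psme1-208 at 68.5% and 78.2% and Psmc3-202 at 69.4% and 79.8%. These were also 2 of the members with the largest differences in level between the pools. Psmd1-201 differed as well, at 89.9% and 82.7% of Psmd1, whose level differed by only -0.0054 on the log2 scale.

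In 3 of the 37 members most of the gene was assigned to transcripts of non-coding types in both libraries, against 9.47% of the 8023 genes. They were Psma3, Psmb4 and Psmc3ip. Psmb4-202, an annotated retained-intron form, held 53.5% and 55.1% of Psmb4, ahead of the coding Psmb4-201 with 45.7% and 41.3%. In Psma3 the nonsense-mediated decay form Psma3-201 held 27.3% and 31.5%, beside the coding Psma3-202 with 29.3% and 29.3% and the retained-intron form Psma3-203 with 21.6% and 23.2%. Non-coding types together held 57.1% and 62.4% of Psma3. Psmc3ip-202, a retained-intron form, held 49.8% and 55.3% of Psmc3ip. In Psmd13 the coding Psmd13-201 held 41.1% and 40.2%, non-coding types 35.6% and 33.2%, and transcripts that only the older annotation release holds 18.7% and 22.1%. Counted by coding transcripts alone, Psma3 stood at 184 and 150 TPM and Psmb4 at 123 and 121 TPM, which made them the 2 lowest of the 14 core genes, whereas by the whole gene Psma3 was the third of the 31 subunits. These forms share most of their exons with the coding ones, and the assignment is the quantifier's estimate.

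**Figure D4:**
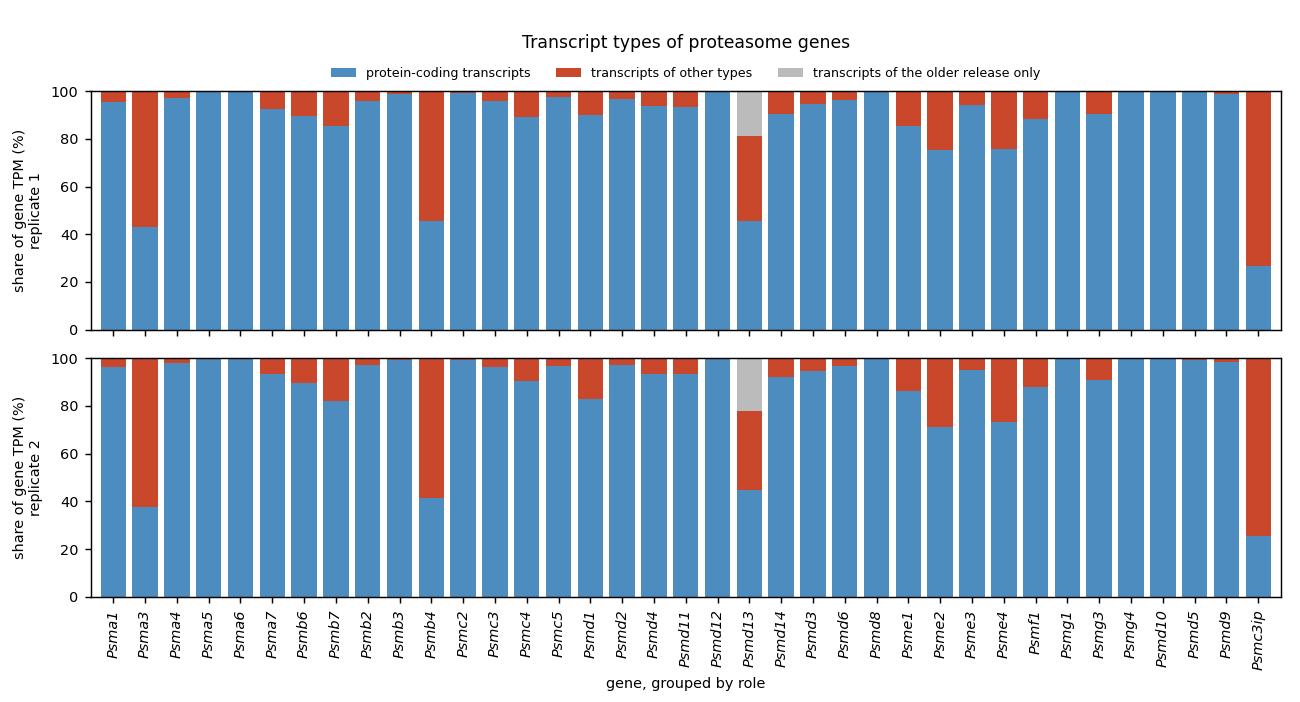
Share of the TPM of each gene (percent) held by protein-coding transcripts in blue, by transcripts of other types in red and by transcripts of the older annotation release alone in grey, for the 37 members with at least 2 transcripts, with replicate 1 above and replicate 2 below. Psma3, Psmb4 and Psmc3ip are over 50% red in both libraries, and most other bars are nearly all blue.

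Copies of proteasome genes elsewhere in the genome bear on some of these levels. Of the 50 members, 11 share at least 100 words of 31 bases with 15 processed pseudogenes in the tables, and 4 of those pseudogenes stood at 1 TPM or more in both libraries. The highest of them was Gm13835. It lies on chromosome 6 from 31141979 to 31142663 (minus strand) and stood at 115 and 120 TPM on 1242 and 1514 expected counts, while all 15 together had 1582 and 1939. All its words of 31 bases occur in Psma3, and 662 of the 765 coding bases of Psma3-202 are found in it without a break. Reads within that stretch fit both, so the levels of Psma3 and of this copy are uncertain. The coding bases 353 to 412 of Psma3 (GENCODE M21 transcript Psma3-202) are printed to show such a shared stretch, which occurs letter for letter in Gm13835.
Psma3: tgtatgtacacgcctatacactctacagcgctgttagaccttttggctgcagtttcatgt

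The next highest copy, Gm14048, shares 50.2% of its words with Psmd11 and stood at 10.8 and 9.59 TPM, beside 252 and 222 for Psmd11. It lies within the span of A730017L22Rik on the opposite strand, which stood at 12.7 and 10.9 TPM. Psmd11 shares 797 words with A730017L22Rik on the opposite strand, so the level of Gm14048 is uncertain where strand was not used. Psme2b shares 76.5% of its words with Psme2 and was estimated 160-fold and 158-fold below it, on 12.8 and 15.8 counts. Psma5, whose copies Gm8394 and Gm12989 stood at 1.15 and 1.87 and at 0.45 and 1.89 TPM, shares 58.7% of its words with other genes. Psmb5 shares 71.7% of its words with other genes, 59.8% with 1 gene that was not among those quantified. Reads of that gene that fit Psmb5 could not be divided between them, so the level of Psmb5 may include such reads and is uncertain. Other overlaps are with genes on the opposite strand, among them Psmb7 with Nek6, Psmc3 with Slc39a13, Psmd13 with Sirt3 and Psmc3ip with Mlx. Mlx, at 78.4 and 79.4 TPM, was above Psmc3ip, so the low value and the retained-intron share of Psmc3ip are uncertain where strand was not used.

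Promoters were examined to show the sequence around the RefSeq starts of the standard subunits and of their counterparts. RefSeq windows of 250 bases before and 50 after a start (GRCm38.p6) were found for 42 of the 50 members, 45 windows in all. There were 4 motifs searched, on both strands, and in the member windows no match of 1 motif overlapped with a match of another. TGACNNNGC is the core of the element through which Nfe2l1 and its relatives act, CCAAT the box bound by the factor NF-Y, the interferon-stimulated core is GAAA repeated after 2 free bases, and the fourth is the palindromic site of the factor Nrf-1, which is another protein than the product of Nfe2l1.

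TGACNNNGC occurred in 6 of 45 member windows (13.3%), against 12.4% of all 32851 windows and 13.0% of those of protein-coding genes. CCAAT occurred in 33.3% of member windows against 37.4%. The share of both motifs among the members was thus near that of all windows. The interferon-stimulated core occurred in 5 windows (11.1%) against 3.44%, those of Psmb3, Psmd4, Psmd9, Psme1 and Psmg4, and in 0 of the 4 windows of the inducible and thymic beta subunits. However, the windows of Psmb8, Psmb9 and Psmb11 lie wholly inside the GENCODE gene, so the sequence before its GENCODE start was not searched. The matched windows of Psme1 and Psmd9 also lie inside the GENCODE gene. The Nrf-1 site occurred in 2 windows (4.44%) against 0.971%, those of Psma2 and Psmg1. With so few windows the last 2 shares rest on 5 genes and 2 genes. The 6 matches to TGACNNNGC are printed with up to 10 bases on each side, the match in capitals, 5′ to 3′ in the direction in which the motif reads. They show how the variable bases differ between members.
Psmb5: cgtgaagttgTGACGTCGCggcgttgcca
Psmb6: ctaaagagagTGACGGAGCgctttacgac
Psmd9: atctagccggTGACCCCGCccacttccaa
Psme4: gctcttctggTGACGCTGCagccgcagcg
Psmc6: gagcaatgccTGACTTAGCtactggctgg
Psmd12: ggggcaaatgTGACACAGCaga

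These stretches lie at chr14:54618024-54618052 (minus strand) for Psmb5, chr11:70525338-70525366 (plus) for Psmb6, chr5:123228149-123228177 (plus) for Psmd9, chr11:30771758-30771786 (minus) for Psme4, chr14:45329587-45329615 (minus) for Psmc6 and chr11:107479278-107479299 (minus) for Psmd12. The middle of the match lay 43 bases before the RefSeq start of Psmb5, 5 before Psmb6, 27 before Psmd9 and 3 before Psme4, and more than 200 bases before Psmc6 and Psmd12. Of the standard catalytic genes, Psmb5 and Psmb6 thus held the motif close to the start.

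For the chymotrypsin-like position, where the standard gene stood at 355 and 368 TPM and its inducible counterpart at 1.91 and 2.44 TPM, the 250 bases before each RefSeq start are printed whole. Capitals mark matches to TGACNNNGC, CCAAT or the interferon-stimulated core. The stretches are chr14:54617996-54618245 (minus strand) for Psmb5 and chr17:34197945-34198194 (plus strand) for Psmb8. The GENCODE start of Psmb8 lies upstream of the RefSeq one, and the whole Psmb8 stretch is inside the GENCODE gene. The Psmb5 stretch lies mostly before its GENCODE start, so the 2 stretches are not alike in position.
Psmb5: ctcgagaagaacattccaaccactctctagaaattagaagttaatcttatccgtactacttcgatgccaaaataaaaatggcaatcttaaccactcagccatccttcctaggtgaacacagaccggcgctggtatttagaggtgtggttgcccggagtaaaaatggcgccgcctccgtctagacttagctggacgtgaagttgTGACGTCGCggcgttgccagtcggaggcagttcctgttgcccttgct
Psmb8: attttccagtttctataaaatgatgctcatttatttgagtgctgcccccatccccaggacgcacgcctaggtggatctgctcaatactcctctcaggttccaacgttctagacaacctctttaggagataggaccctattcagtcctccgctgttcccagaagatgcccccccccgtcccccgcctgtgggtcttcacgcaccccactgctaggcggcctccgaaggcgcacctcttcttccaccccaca

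The Psmb5 stretch holds 1 match and the Psmb8 stretch holds 0. No match says only that these letters are not in this window.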

How the data were processed

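Total RNA-seq of 2 midbrain libraries (1 group) was described from the deposited gene and transcript tables. Per the deposited readme, reads were aligned to the mouse genome and transcriptome (mm10), and genes were quantified with GENCODE M4 and spike-ins. The aligner, the quantifier and the strand setting were not given in the sources used here. Per the file headers, the deposited expected counts are estimated reads per gene, with shared reads divided among genes. Per the file headers, the deposited TPM are per effective length on a fixed total, spike-ins included. Bounds of the credibility intervals of TPM, kept as a score because their level is not stated, are a further deposited column. Per the file headers, the deposited isoform share is a percent of the TPM of the gene. The authors' deposited FPKM values were not used.

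GENCODE M21 (GRCm38, the assembly of mm10) gave symbols, types and coordinates, joined by Ensembl identifier without version, and 884 identifiers had no match. Single transcripts are named only where both releases give the same length, whereas the counts, medians and summed shares took all transcripts. Detection meant at least 1 TPM in both libraries. Pool differences are log2 ratios of expected counts plus 0.5, scaled by TMM factors (edgeR 4.0.16, on rounded expected counts over all Ensembl genes). They were called at 1.5-fold for genes with a mean of at least 50. The calculation was tested on simulated data. DESeq2 1.42.0 size factors, spike-in scaling, posterior mean values, other minimums and each library alone were alternatives. Intervals are at 95%, and like the floor of 3 counts they cover counting error alone: there are no molecular identifiers, and reads are not separate molecules.

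Depth was 31830355 and 36576263 expected counts. The members, roles and pathway and marker lists were chosen with earlier results of these data known. Every member was described by role, and of each pathway list the 2 highest and 2 lowest genes by mean TPM and any below 1 TPM, except that 1 gene is not reported here. Promoter windows came from RefSeq. R 4.3.3 and Python 3.11.15 were used (scipy 1.17.1, numpy 2.4.6, matplotlib 3.10.9, pandas 2.3.3).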

Additional observations from a re-analysis of the deposited data

How the results depend on the processing

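With 1 library left out, the medians ranged from 296 to 307 TPM for the alpha ring, 327 to 329 for the beta ring, 213 to 219 for the ATPases, 197 to 204 for the lid and 89.1 to 102 for the activators. With 2 libraries this is the spread between them and no separate check. Members detected numbered 46 to 47 in single libraries, 48 by posterior mean TPM, 49 at 0.5 TPM and 45 at 5 TPM. The pool differences need both libraries, so no library could be left out, and no paired analysis was possible because there is 1 group. Posterior mean TPM gave 293.2, 318.96 and 211.17 TPM for the alpha ring, beta ring and ATPases and a log2 ratio of Psmb6 to Psmb9 of 8.42. TPM rescaled to nuclear genes gave 328.19, 356.7, 235.03 and, for the lid, 217.98. Coding transcripts alone, chosen after seeing the data, gave 265.54, 322.95, 202.11 and 170.99. In all of these the beta ring stayed above the alpha ring and the alpha ring above the ATPases. Expected counts, which are not per length, gave log2 ratios of 7.03 for Psmb5 to Psmb8, 8.55 for Psmb6 to Psmb9, 8.41 for Psma7 to Psma8 and 0.23 for Psme3 to Psme1, where the sign turned. Spike-in scaling moved the median of all genes by -0.60 (log2): spike-ins took 1.49% and 2.23% of counts. The members' median became -0.57, beside -0.59 over all genes, and 20 of 45 members passed 1.5-fold, beside 51.6% of all genes. With no minimum count 2 members passed, Psmb9 and Psmb11, on 1 to 37.1 counts. Precision is limited by depth for these and for Psmb8, Psma8 and Psme2b.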
